A study of Homo sapiens with 6 samples.

Results

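The hypoxia-inducible factor (HIF) pathway was followed through 10 genes in SNU216, a human gastric cancer cell line, after knockdown of the oxytocin receptor gene OXTR. The genes were taken by symbol from the 17318 listed in every library, and all 10 were found. They are 3 HIF subunit genes (HIF1A, EPAS1 and ARNT), 2 prolyl hydroxylase genes (EGLN1 and EGLN3) and 5 genes known as hypoxia targets (ADM, NDRG1, ANKRD37, VEGFA and BNIP3). After 48 h of transfection, 3 libraries were made from cells that received siControl, the control siRNA, and 3 from cells that received siOXTR, the siRNA directed at OXTR. Neither the siRNA sequences nor the oxygen level of the cultures is stated in the labels. Nor is it stated that the libraries of a group are separate cultures, and the p-values below therefore cover the spread among these 6 libraries alone, some of which could be technical.

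HIF is a dimer of an oxygen-regulated alpha subunit, HIF-1alpha from HIF1A or HIF-2alpha from EPAS1, and a constant beta subunit from ARNT. In the presence of oxygen the prolyl hydroxylases of the EGLN family mark the alpha subunit for capture by the VHL ubiquitin ligase and breakdown. With little oxygen the dimer binds short hypoxia response elements in DNA and raises the transcription of genes for glycolysis, blood vessel growth, mitophagy and its own hydroxylases. Regulation of the alpha subunits by oxygen is mostly at the level of the protein, which RNA libraries do not show.

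Expression is given as FPKM, the fragments of a gene divided by its length and by the mapped fragments of the library, so levels can be compared between genes. Differences were tested with limma on log2(FPKM + 1), with p-values adjusted by the Benjamini-Hochberg method over the 11550 genes that averaged 1 FPKM or more, and a threshold of 0.05. Fold changes on that scale understate the change of low genes, and folds written as "-fold" are ratios of mean FPKM. The knockdown was visible in every library, with OXTR at 39.37, 38.87 and 39.02 FPKM in siControl and 4.76, 4.65 and 5.34 FPKM in siOXTR. The epithelial markers EPCAM, CDH1, KRT8, KRT18 and KRT19 were all above 1 FPKM and summed to between 6570 and 7867 FPKM per library, a sum carried by the keratins. Within it CDH1, the E-cadherin gene, fell from 76.1 ± 3.28 to 20.0 ± 0.243 FPKM (log2 fold change -1.88, limma adjusted p = 1.52e-10) and EPCAM from 291.1 ± 17.2 to 145.3 ± 7.78 FPKM (-0.997, limma adjusted p = 5.53e-08). KRT19 rose by 0.27 as deposited (limma adjusted p = 0.0110) and did not pass after TMM scaling (0.14, limma adjusted p = 0.170), while KRT8 and KRT18 did not pass under either scaling. The part of these marker changes in the results below was not tested. Of the listed fibroblast, endothelial and leukocyte markers, CD68 alone averaged 1 FPKM or more, and the others of each list summed to at most 2.02 FPKM in any library. Among all tested genes 17.6% were lower and 42.2% higher in siOXTR, and the median log2 fold change was 0.13. Scaling the libraries by a trimmed mean of M values (TMM) moved that median by -0.12, to 0.01, and left 24.5% of tested genes lower. Of all genes past the threshold 70.5% were higher as deposited and 44.0% after TMM scaling, so small rises have to be read against this shift.

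Of the 10 genes 6 were lower in siOXTR, 1 was higher and 3 did not pass the threshold. The 7 past the threshold in either direction compare with 59.8% of all tested genes, the 6 lower with the 17.6% given above, and the 1 higher with 42.2%. The 6 were both prolyl hydroxylase genes and 4 of the 5 targets, led by NDRG1, ADM and ANKRD37, while no HIF subunit gene was lower (limma, also none at an unadjusted p under 0.05). All siOXTR libraries lay below all siControl libraries for 7 of the 10, against 19.2% of tested genes, and above them for 2, against 45.2%. The median log2 fold change of the 10 was -0.31. These 10 and the lists below were chosen with earlier results of these data known, so their shares beside all tested genes are a description. In RNA from whole cultures, fewer cells with a transcript and less of it per cell cannot be told apart. EGLN3 and ANKRD37 reached the filter only through siControl, where they were higher, so the counts that include them are a description. After TMM scaling 7 of the 10 were lower and none was higher (limma, also none at an unadjusted p under 0.05), the seventh being HIF1A. At an unadjusted p under 0.05 the counts as deposited were 6 lower and 2 higher.

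**Figure D1:**
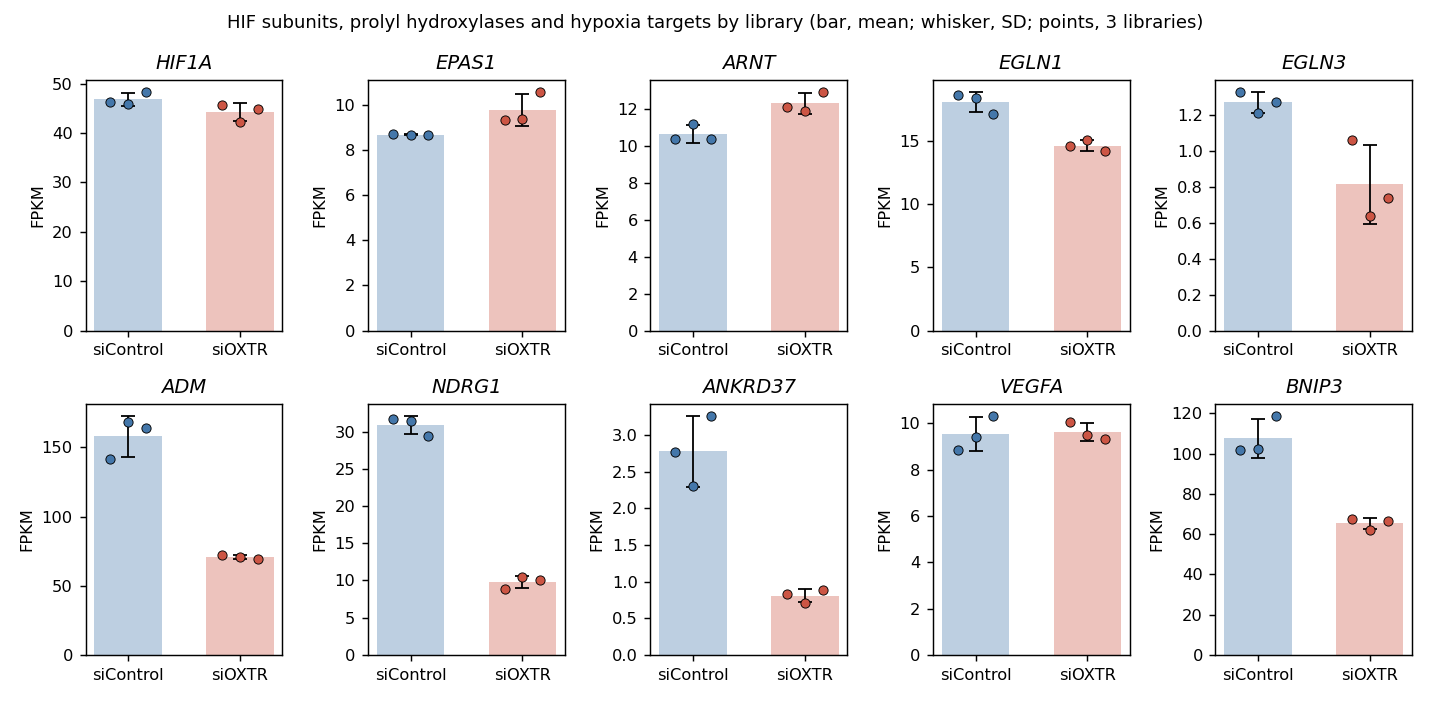
FPKM of each of the 10 genes in the 3 siControl and 3 siOXTR libraries, with a linear axis from 0 for each gene. Points are libraries, bars are group means and whiskers are SDs. NDRG1, ADM, ANKRD37 and BNIP3 show the widest gaps between groups, whereas the VEGFA libraries overlap.

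HIF1A was the most abundant of the subunit genes. Its siControl libraries held 46.21, 45.93 and 48.37 FPKM and its siOXTR libraries 45.62, 42.21 and 44.94 FPKM. Every siOXTR library was below every siControl library, by a narrow margin. The mean went from 46.8 ± 1.33 to 44.3 ± 1.80 FPKM (SD, n = 3 each), and the log2 fold change of -0.08 (SE 0.053, 95% interval -0.20 to 0.04, limma adjusted p = 0.206) did not pass the threshold. It passed after TMM scaling, at -0.21 (limma adjusted p = 0.0078), and after rescaling each library to TPM, at -0.17 (limma adjusted p = 0.0273). The call for HIF1A thus depended on the scaling between libraries.

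EPAS1 was less abundant than HIF1A. It was at 8.71, 8.66 and 8.67 FPKM in siControl and at 9.32, 9.39 and 10.59 FPKM in siOXTR. All siOXTR libraries were above all siControl libraries, and siOXTR library 3 stood higher than the other two. The log2 fold change of 0.15 (SE 0.064, limma adjusted p = 0.0588) did not pass the threshold and was 0.04 after TMM scaling (limma adjusted p = 0.684).

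ARNT encodes the beta subunit shared by both alpha subunits. It was at 10.39, 11.20 and 10.35 FPKM in siControl and 12.09, 11.86 and 12.93 FPKM in siOXTR, with no overlap. Its mean rose from 10.7 ± 0.480 to 12.3 ± 0.563 FPKM (log2 fold change 0.19, SE 0.061, limma adjusted p = 0.0180). That is close to the median of all tested genes, and 42.2% of them also rose. The call was lost after TMM scaling (0.07, limma adjusted p = 0.361), after TPM rescaling (0.12, limma adjusted p = 0.190), without siControl library 1 (limma adjusted p = 0.0507) and without siOXTR library 3 (limma adjusted p = 0.0897).

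The balance between subunits was also read as a ratio within each library, which no scaling between libraries can move. The log2 ratio of EPAS1 to HIF1A went from -2.43 ± 0.042 in siControl to -2.18 ± 0.104 in siOXTR, a difference of 0.25. The log2 ratio of HIF1A to ARNT went from 2.14 ± 0.095 to 1.85 ± 0.061, a difference of -0.29. In both the groups did not overlap, and HIF1A was lower relative to EPAS1, the other alpha subunit gene, and to ARNT, the partner gene, in all 3 siOXTR libraries. The exact two-sided permutation p was 0.1 for each, the smallest that 3 libraries against 3 can give, and 0.125 after adjustment over the 5 ratios tested.

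**Figure D2:**
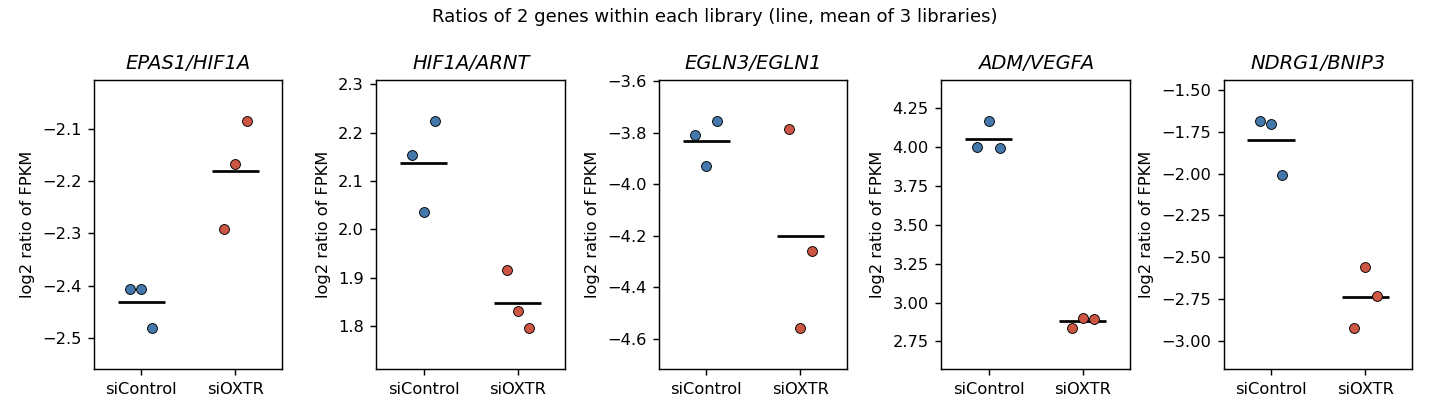
Log2 ratios of FPKM of 2 genes within each library, for 5 pairs. Points are libraries and lines are means of 3 libraries, and each panel has its own axis, which does not start at 0. The groups are apart for EPAS1/HIF1A, HIF1A/ARNT, ADM/VEGFA and NDRG1/BNIP3, and EGLN3/EGLN1 overlaps.

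The prolyl hydroxylases are the oxygen sensors of the pathway, and EGLN1 and EGLN3 are themselves known to be induced by HIF. EGLN1, which encodes the main hydroxylase of HIF-1alpha (PHD2), was at 18.67, 18.44 and 17.15 FPKM in siControl and 14.62, 15.06 and 14.19 FPKM in siOXTR. The groups were well apart. The mean fell from 18.1 ± 0.819 to 14.6 ± 0.435 FPKM, a 1.24-fold fall (log2 fold change -0.29, SE 0.058, limma adjusted p = 0.00116).

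EGLN3, which encodes PHD3, was low in both groups. It was at 1.33, 1.21 and 1.27 FPKM in siControl and 1.06, 0.64 and 0.74 FPKM in siOXTR. The siOXTR libraries were all lower and more scattered, with library 1 close to siControl. The mean fell 1.56-fold, from 1.27 ± 0.060 to 0.813 ± 0.219 FPKM (log2 fold change -0.33, SE 0.097, limma adjusted p = 0.0114). Without siOXTR library 2 the log2 fold change was -0.26 and did not pass (limma adjusted p = 0.0575). The mean over all 6 libraries was 1.04 FPKM, just above the filter, which EGLN3 reached only through siControl. With no filter on low values the limma adjusted p was 0.0227. The annotated span of EGLN3 contains SPTSSA, a gene on the same strand that encodes a subunit of serine palmitoyltransferase, but the exons of the 2 genes share 0 bases. SPTSSA was more abundant, at 21.00, 20.20 and 22.74 FPKM in siControl and 17.66, 18.78 and 17.27 FPKM in siOXTR, lower without overlap like EGLN3, and whether fragments of one were counted to the other was not tested. Exons of antisense transcripts overlap exons of HIF1A (117 bases) and VEGFA (188 bases), and such fragments could be counted with these genes if strand was not used. HIF1A also shares 148 exon bases with AL137129.1, a transcript on the same strand, and use of strand would not separate those fragments. The log2 ratio of EGLN3 to EGLN1 was -3.83 ± 0.089 in siControl and -4.20 ± 0.389 in siOXTR, overlapping between groups (exact permutation p = 0.3, adjusted p = 0.3).

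EGLN2, the third hydroxylase gene (PHD1), which is not generally induced by hypoxia, went the other way. It rose from 45.3 ± 4.35 to 59.7 ± 0.442 FPKM (log2 fold change 0.39, SE 0.065, limma adjusted p = 0.000309) and was still higher after TMM scaling (0.27, limma adjusted p = 0.005). Per length it was the most abundant hydroxylase gene of the family in both groups.

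Among the targets NDRG1 had the lowest log2 fold change. NDRG1, a stress-responsive gene whose cytosolic product is linked to differentiation, was at 31.70, 31.44 and 29.46 FPKM in siControl and at 8.92, 10.52 and 10.00 FPKM in siOXTR. No siOXTR library came near the siControl range. The 3.15-fold fall (log2 fold change -1.56, SE 0.066, limma adjusted p = 2.32e-09) placed NDRG1 40th from the lowest of the 11550 tested genes.

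ADM encodes adrenomedullin, a secreted peptide that widens blood vessels and is induced by HIF in many cell types. It was the most abundant of the 10 genes, at 141.35, 168.57 and 164.25 FPKM in siControl and 72.05, 71.01 and 69.38 FPKM in siOXTR. The siControl libraries were spread, with library 1 lowest, and the siOXTR libraries were tightly grouped below them. The mean fell from 158.1 ± 14.6 to 70.8 ± 1.35 FPKM, a 2.23-fold fall (log2 fold change -1.14, SE 0.066, limma adjusted p = 3.09e-08).

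ANKRD37, a small ankyrin repeat protein gene with a hypoxia response element known in its promoter, was at 2.77, 2.30 and 3.26 FPKM in siControl and 0.83, 0.71 and 0.88 FPKM in siOXTR. All siOXTR libraries were below 1 FPKM. Its 3.44-fold fall was the widest of the 10 as a ratio of means. On the log2(FPKM + 1) scale, which compresses low values, it was -1.06 (SE 0.098, limma adjusted p = 2.60e-06). ANKRD37 reached the filter only through siControl, and with no filter on low values the limma adjusted p was 0.000154. The annotated end of ANKRD37 shares 1089 bases, 909 of them exonic in both, with UFSP2 on the opposite strand, and it is not stated whether fragments were assigned by strand. UFSP2 was at 2.40, 2.28 and 3.03 FPKM in siControl and 2.79, 3.06 and 3.07 FPKM in siOXTR, so it did not fall with ANKRD37.

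BNIP3 encodes a receptor on the outer mitochondrial membrane that starts mitophagy. It was at 101.95, 102.22 and 118.66 FPKM in siControl and 67.58, 62.00 and 66.33 FPKM in siOXTR, with siControl library 3 above the other two and no overlap. The mean fell 1.65-fold, from 107.6 ± 9.57 to 65.3 ± 2.93 FPKM (log2 fold change -0.71, SE 0.066, limma adjusted p = 2.63e-06). The annotation names 39 pseudogenes after BNIP3, and near-identical copies can share fragments with it, so its level is less certain than that of the other targets. HIF1A, EGLN1 and EGLN3 each have 1 pseudogene named after them, and the same limit applies to them. The BNIP3 paralogue BNIP3L, another mitophagy receptor gene, was at 30.8 ± 2.48 and 29.7 ± 1.34 FPKM (log2 fold change -0.05, SE 0.065, limma adjusted p = 0.529). The log2 ratio of NDRG1 to BNIP3 within a library went from -1.80 ± 0.183 to -2.74 ± 0.181, a difference of -0.94 with no overlap (exact permutation p = 0.1, adjusted p = 0.125).

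VEGFA, which encodes the main growth factor for blood vessels and is a textbook HIF target, stood apart from the other targets. It was at 8.86, 9.40 and 10.31 FPKM in siControl and 10.07, 9.51 and 9.32 FPKM in siOXTR. The 3 siOXTR values lay inside the siControl range. The log2 fold change was 0.02 (SE 0.067, limma adjusted p = 0.841), and its 95% interval of -0.13 to 0.16 leaves out a fall of the size seen in the other 4 targets. Its sign turned with scaling, to -0.10 after TMM (limma adjusted p = 0.248). ADM and VEGFA are both secreted, and their log2 ratio within a library went from 4.05 ± 0.098 to 2.88 ± 0.034, a difference of -1.17 with no overlap (exact permutation p = 0.1, adjusted p = 0.125).

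**Figure D3:**
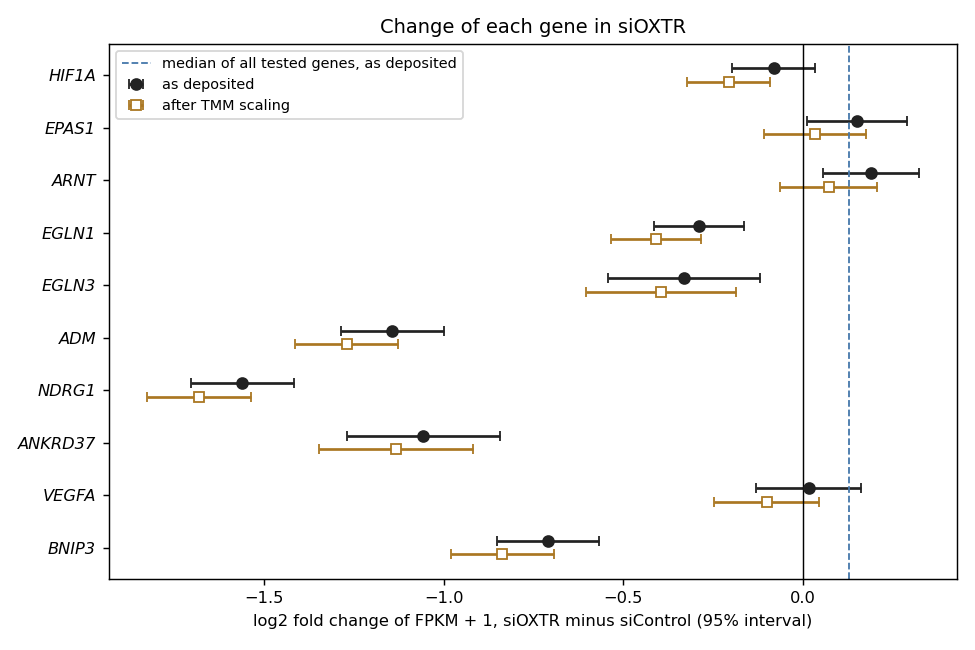
Log2 fold change of each gene, siOXTR minus siControl, on the log2(FPKM + 1) scale with its 95% interval, as deposited (circles) and after TMM scaling (squares). The dashed line is the median of all tested genes as deposited, 0.13. The 6 genes called lower lie at -0.29 or below under both scalings, and the HIF subunit genes and VEGFA lie between -0.21 and 0.19. Of the genes called lower, EGLN3 and ANKRD37 reached the filter only through siControl.

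The order of the levels changed with these falls. In siControl the mean FPKM ran from ADM, BNIP3, HIF1A and NDRG1 through EGLN1, ARNT, VEGFA and EPAS1 to ANKRD37 and EGLN3, and no neighbours in that order overlapped between libraries. In siOXTR ADM and BNIP3 still led, only a few FPKM apart. NDRG1 dropped below EGLN1 and ARNT, to the level of EPAS1 and VEGFA. The libraries of NDRG1, EPAS1 and VEGFA overlapped there, at means of 9.81, 9.77 and 9.63 FPKM. ANKRD37 and EGLN3, at 0.807 and 0.813 FPKM, also overlapped.

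Short promoter sequences are shown for 4 of the 6 genes that fell, with EPAS1 as a gene that did not, to show where the core letters of a hypoxia response element lie. The sequences are the 250 bases before the transcription start from RefSeq (GRCh38.p14), and 8 of the 10 genes matched an entry, all but NDRG1 and VEGFA. EGLN3, which fell, had an entry without a match and is not printed. Capitals mark every ACGTG or GCGTG on either strand, printed 5′ to 3′ along the gene's strand. The ANKRD37 window (chr4:185396591-185396840, plus strand), the BNIP3 window (chr10:131981924-131982173, minus strand), the ADM window (chr11:10304823-10305072, plus strand), the EGLN1 window (chr1:231422288-231422537, minus strand) and the EPAS1 window (chr2:46297157-46297406, plus strand) read as follows.
ANKRD37: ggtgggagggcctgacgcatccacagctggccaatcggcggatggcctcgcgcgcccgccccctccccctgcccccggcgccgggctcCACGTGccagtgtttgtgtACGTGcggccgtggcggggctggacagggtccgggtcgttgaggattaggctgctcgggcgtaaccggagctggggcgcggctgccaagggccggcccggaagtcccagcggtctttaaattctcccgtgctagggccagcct
BNIP3: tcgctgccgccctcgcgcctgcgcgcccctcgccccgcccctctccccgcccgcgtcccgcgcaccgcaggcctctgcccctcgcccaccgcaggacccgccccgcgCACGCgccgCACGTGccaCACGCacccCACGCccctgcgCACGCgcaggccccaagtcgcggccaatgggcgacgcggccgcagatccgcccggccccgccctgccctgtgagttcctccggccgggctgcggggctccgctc
ADM: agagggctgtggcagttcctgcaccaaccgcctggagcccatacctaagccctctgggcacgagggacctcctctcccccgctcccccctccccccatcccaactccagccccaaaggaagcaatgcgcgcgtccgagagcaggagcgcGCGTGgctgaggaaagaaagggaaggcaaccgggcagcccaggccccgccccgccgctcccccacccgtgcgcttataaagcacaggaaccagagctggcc
EGLN1: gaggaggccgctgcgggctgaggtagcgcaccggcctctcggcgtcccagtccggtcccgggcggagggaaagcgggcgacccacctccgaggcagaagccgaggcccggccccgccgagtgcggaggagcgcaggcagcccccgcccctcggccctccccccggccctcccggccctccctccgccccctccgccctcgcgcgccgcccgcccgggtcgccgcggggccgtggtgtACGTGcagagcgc
EPAS1: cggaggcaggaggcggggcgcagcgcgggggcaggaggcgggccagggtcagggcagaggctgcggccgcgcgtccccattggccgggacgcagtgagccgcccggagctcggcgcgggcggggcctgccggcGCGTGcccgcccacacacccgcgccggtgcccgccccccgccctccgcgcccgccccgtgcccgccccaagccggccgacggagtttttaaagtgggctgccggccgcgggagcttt

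ANKRD37 held 3 matches and BNIP3 held 6, counting both strands. In each of these genes 2 of them form a single CACGTG, a palindrome read as ACGTG on both strands, at -162 to -157 in ANKRD37 and -134 to -129 in BNIP3 from the start. CACGTG is also the E-box bound by MYC and related factors. It was present in 6.34% of the 35097 promoter windows of the same length and in 8.29% of the 13807 windows of tested genes. ADM held 1 match (GCGTG at -101 to -97) and EGLN1 held 1 (ACGTG at -13 to -9). EPAS1 also held 1 match (GCGTG at -117 to -113), and so did the first start of HIF1A. None was found in these windows of EGLN3 and ARNT or at the second start of HIF1A. Either core was present in 43.2% of all windows and 55.7% of those of tested genes, so a single match is common, and a match in these GC-rich windows (68.0% to 81.6% GC in the 5 printed) describes letters, not binding.

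The other genes of oxygen sensing did not fall. Of 15 genes for further HIF subunits, hydroxylases, the VHL ligase, HIF coactivators, CITED proteins and the ubiquitin ligases SIAH1 and SIAH2, 13 were tested. Of these 8 were higher and none was lower (limma, also none at an unadjusted p under 0.05), with a median log2 fold change of 0.23. The 8 included SIAH2 and, with overlapping groups, SIAH1. The coactivator genes EP300 and CREBBP did not pass. The 8 higher have to be set against the 42.2% of all tested genes that were higher. After TMM scaling 1 of the list was higher, EGLN2, and 1 lower, the HIF coactivator antagonist gene CITED2. The VHL gene, whose product captures hydroxylated HIF-alpha, was at 22.5 ± 0.565 and 24.1 ± 1.02 FPKM (log2 fold change 0.10, SE 0.055, limma adjusted p = 0.151). HIF1AN, which encodes the asparagine hydroxylase FIH that blocks coactivator binding, rose from 13.7 ± 0.844 to 16.7 ± 0.461 FPKM (0.28, limma adjusted p = 0.00211) and narrowly missed the threshold after TMM scaling (0.16, limma adjusted p = 0.0546). The VHL partners ELOC, ELOB and RBX1 rose by 0.34, 0.31 and 0.30 on the log2 scale as deposited, and after TMM scaling were at 0.22, 0.19 and 0.18 and did not pass. HIF3A and ARNT2 averaged under 1 FPKM and were not tested with the filter.

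Other hypoxia-induced genes outside glycolysis fell in most cases. Of 30 listed genes 24 were tested, 17 were lower and 3 higher, against 17.6% and 42.2% of all tested genes. The 24 had a median log2 fold change of -0.44, against 0.13 for all tested genes. The list was chosen with earlier results of these data known. One of the 17, PPFIA4, reached the filter only through siControl (1.91 ± 0.307 FPKM, and 0.443 ± 0.137 FPKM in siOXTR), so the count that includes it is a description. Large falls included those of P4HA1, a collagen prolyl hydroxylase gene (log2 fold change -1.74), TMEM45A, a membrane protein gene (-1.58), and ERO1A, a gene of oxidative protein folding (-1.47). Among genes of nuclear proteins, the repressor genes BHLHE40 and MXI1 fell by 0.40 and 0.48 and the histone demethylase gene KDM3A by 0.23. These examples were chosen after the values were seen. The demethylase genes KDM4B and KDM4C did not pass as deposited (-0.19 and -0.02, limma adjusted p = 0.0607 and 0.793). KDM4B passed after TMM scaling (-0.30, limma adjusted p = 0.00907). JMJD6, WSB1 and BHLHE41 rose by 0.34, 0.29 and 0.25, and after TMM scaling JMJD6 and WSB1 still passed. CA9, a widely used marker of hypoxia, was at most 0.11 FPKM in any library, and CA12, STC1, LOX, RORA and NDUFA4L2 also averaged under 1 FPKM.

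Hypoxia-induced genes of glucose use also fell in most cases. Of 21 tested genes 14 were lower and 1 higher, against 17.6% and 42.2% of all tested genes. The 21 had a median of -0.25 and a range from -2.16 to 0.16. This list too was chosen with earlier results of these data known. The glucose transporter genes SLC2A3 and SLC2A1 had log2 fold changes of -2.16 and -1.20, PFKFB4, which encodes a regulator of glycolytic flux, -1.01 and the aldolase gene ALDOC -0.97. Among the abundant enzyme genes LDHA, which encodes a lactate dehydrogenase subunit, fell from 1010 ± 19.4 to 800.4 ± 41.2 FPKM (-0.34, SE 0.057, limma adjusted p = 0.000389), and GPI and PGK1 fell by 0.23 and 0.26. ENO1, PKM, TPI1, PGAM1, ALDOA and PFKP lay between -0.06 and 0.05 and none passed the threshold as deposited. After TMM scaling ALDOA, PFKP and PKM were lower (-0.19, -0.17 and -0.15, limma adjusted p = 0.0139, 0.0266 and 0.0448), and ENO1, TPI1 and PGAM1 did not pass. GAPDH rose by 0.16, a call that was lost after TMM scaling (0.03, limma adjusted p = 0.693), after TPM rescaling, and when siControl library 2, siOXTR library 2 or siOXTR library 3 was left out (limma adjusted p = 0.0538, 0.0770 and 0.0885).

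**Figure D4:**
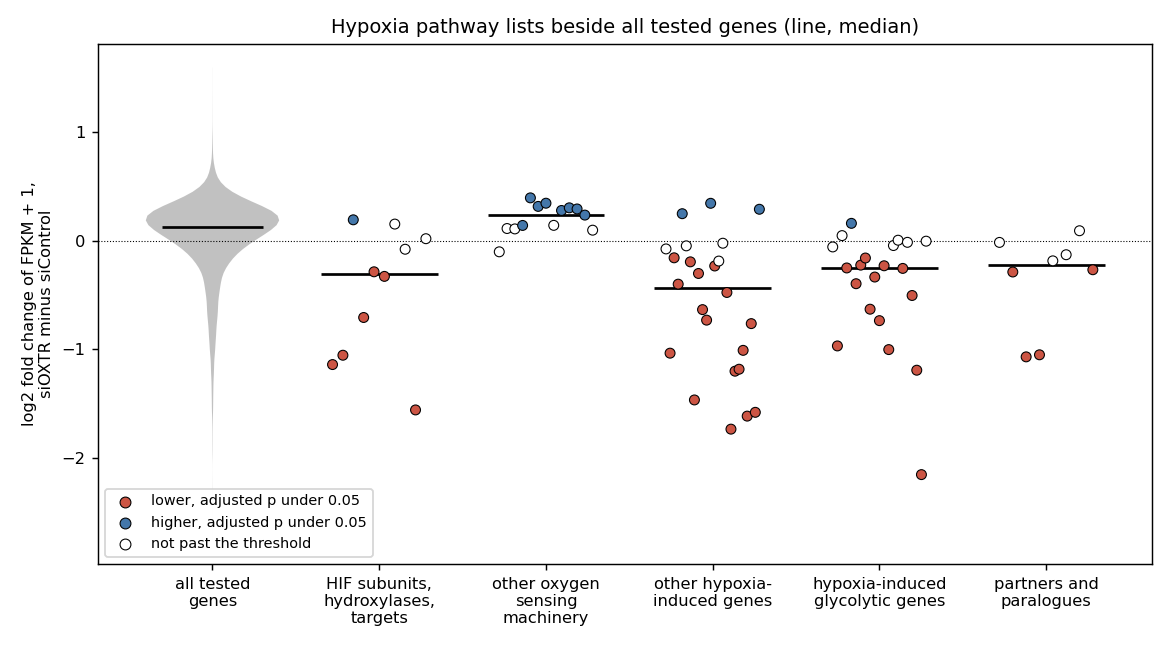
Log2 fold change of tested genes in siOXTR minus siControl, for the 10 genes and 4 lists of related genes, beside the distribution of all 11550 tested genes (shape at the left). Points are genes, coloured by the limma call, and lines are medians. Medians are -0.44 for other hypoxia-induced genes and -0.25 for hypoxia-induced glycolytic genes, against 0.23 for other oxygen sensing genes and 0.13 for all tested genes.

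Falls were also counted by where the protein resides. The 50 tested hypoxia-induced genes (the 5 targets and both hypoxia lists) were sorted by textbook location, a grouping made after the values were seen. Of 15 whose products are secreted, sit in the endoplasmic reticulum or are transporters or other membrane proteins, 14 fell (median -1.19), with VEGFA the exception. TMEM45A, a membrane protein gene not classed here as a transporter, was counted in this class. Of 30 cytosolic or nuclear products, ANKRD37 and PPFIA4 among them, 18 fell and 4 rose (median -0.21), with NDRG1 lowest at -1.56. ANKRD37 and PPFIA4 reached the filter only through siControl, so the counts that include them are a description. Of 5 mitochondrial products 3 fell and none rose (median -0.30, limma). Among all tested genes 17.6% fell and 42.2% rose. Genes of these locations outside the hypoxia lists were not counted, so whether the class shares are particular to hypoxia-induced genes was not tested. After TMM scaling, where 24.5% of all tested genes were lower, 14 of the 15, 22 of the 30 and all 5 were lower, and 2 of the 30 were higher. Differences between these classes were not tested.

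Among genes for partners and paralogues of these genes, 8 of 15 listed were tested, 4 fell and none rose (limma, also none at an unadjusted p under 0.05), with a median of -0.23. The 4 lower compare with 17.6% of all tested genes, and the 4 past the threshold in either direction with 59.8%. PAM, which encodes the enzyme that amidates adrenomedullin, fell from 37.8 ± 0.799 to 17.7 ± 0.515 FPKM (log2 fold change -1.05, SE 0.052, limma adjusted p = 8.91e-09). NRP1, a coreceptor gene for VEGF, fell from 17.6 ± 0.223 to 7.86 ± 0.222 FPKM (-1.07, SE 0.056, limma adjusted p = 1.34e-08). VEGFC, a lymphatic growth factor gene, and NDRG4 had log2 fold changes of -0.27 and -0.29 and passed, and VEGFB did not pass (0.09, limma adjusted p = 0.333), though it did without siControl library 2 (0.18, limma adjusted p = 0.0305). CALCRL, the adrenomedullin receptor gene, was at 0.133 and 0.140 FPKM and FLT1, a VEGF receptor gene, at 0.200 and 0.233 FPKM, so neither was tested. NDRG3, a paralogue of NDRG1, was at 34.6 ± 0.875 and 34.2 ± 1.29 FPKM (-0.02, limma adjusted p = 0.788).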

How the data were processed

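Libraries followed a BGISEQ-500 protocol, per the labels. The authors deposited FPKM per gene, rounded to 2 decimals, per the file headers, and the submitters' processing notes name the build GRCh38.p13. Aligner, quantifier, annotation and strand setting: not given in the sources used here. FPKM sums ran from 417829 to 434167 in siControl and 446246 to 459595 in siOXTR. Depth is unknown, because steps of single fragments could not be found in low values (coherence 0.063 to 0.0861 of 1), so no count model or counting interval was used. Tests used limma 3.58.1 in R 4.3.3 on log2(FPKM + 1), two-sided, with group as the one term and variances moderated by a robust prior that followed the mean. Genes averaging under 1 FPKM were left out. The code was tested on simulated data. Ratios within libraries used an exact permutation test. No library pair of one group shared more than 0.606% of values. Overlapping genes came from GENCODE 29 (GRCh38). Named genes are the 10, OXTR, VHL, HIF1AN, EGLN2 and up to 4 genes past the threshold per list with the largest change, and others were chosen after their values were seen. One gene that this rule names is not reported here. The 10 genes and the lists were chosen with earlier results of these data known. Alternatives covered the pseudocount, filter, scaling, variance prior, replicate block and leaving out each library.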

Additional observations from a re-analysis of the deposited data

How the results depend on the processing

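With a pseudocount of 0.1, no filter, no trend or robust prior, or a replicate block, all 10 genes kept their direction and side of the threshold, and with a filter of 5 FPKM so did the 8 still tested. The replicate block gave 6 lower and 1 higher of the 10, as without it, and 2105 lower and 5100 higher of all genes. It changed the calls of none of the 10. Deviations of same-numbered libraries from their group means correlated at 0.107, 0.00421 and 0.16. Both siControl library 2 and siControl library 3 correlated best with another number, so the numbers were not taken as pairs. TMM and TPM scaling gave 2228 and 2942 genes higher, against 4869, and among the 10 left 0 higher under both (limma, also 0 at an unadjusted p under 0.05). They gave 1 and 5 oxygen sensing genes higher and 1 lower under each, and 0 glycolytic genes higher under both. Without a filter 15 oxygen sensing genes were tested rather than 13, and 7 were higher and 1 lower. The gene lower there need not be the one lower under either scaling. VEGFA turned to -0.10 with TMM, -0.065 with TPM, and in the runs that left out 1 library ranged from -0.029 to 0.070, without passing the threshold, and VEGFB turned to -0.036 with TMM. Leaving out 1 library gave 5 to 6 of the 10 lower and 0 to 1 higher, 0 to 1 glycolytic genes higher and 0 to 1 partner genes higher. Depth is unknown, so no counting error can be given for the low genes EGLN3 and ANKRD37.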
